A study of Mus musculus with 4 samples.

Results

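The 10 genes followed here mark hepatoblasts, hepatocytes and biliary cells, and were read in the livers of mice born microsomic (M) and of their controls (C): Afp, Alb, Ttr, Ahsg, Fetub, Gpc3, Epcam, Spp1, Sox9 and Cdh1. They were chosen by name, and every non-control spot whose gene name in the array annotation is one of these 10 was taken. This gave 11 probes at 38 spots, of 55681 probes with 36161 gene names at 59305 spots. Gpc3 has 2 probes and each of the other 9 genes has 1, and the probes of Afp, Sox9 and Cdh1 were printed at 10 spots each.

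Microsomic mice are those that the study set apart for a very low weight at birth, and controls are littermates of normal weight. RNA of whole liver was labelled with Cy3 and read in 1 colour on an Agilent array with probes of 60 bases. The files used here hold 1 array for each of 4 groups on 1 slide. Females are called MF where microsomic and CF where control, and males MM and CM. The sample labels give embryonic day 20 and strain C57BL/6J for all 4 groups, whereas the methods describe newborns of C57BL/6 N, and no label says whether an array holds 1 animal or a pool. The labels name no transgene or treatment in any group. With 1 array per group a difference between arrays has no spread between animals behind it and no p-value, and in whole liver fewer cells of a type and less RNA per cell cannot be told apart.

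In the fetal liver, hepatoblasts are bipotent progenitors that express Afp and Alb together and give rise to hepatocytes and to the epithelium of the bile ducts. Hepatocytes then secrete most plasma proteins, and Afp and Gpc3 are silenced after birth, a step in which the repressor Zhx2 takes part. Cells that take the biliary path in the ductal plate around the portal vein turn on Sox9 and Spp1, and keep Epcam and Cdh1 on their membranes. Fetal liver is also a blood-forming organ, so that erythroid and myeloid RNA makes up a large share of what is labelled.

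Alb and Afp are neighbours on chromosome 5 and belong to the same gene family. The stretch of 120 bases before each start site is shown because hepatocyte nuclear factor 1 is known to act through sites of the type GTTAAT and GTTAAC, which differ in the last letter, close to the start of both genes. Capitals mark every match to these letters on either strand. The sequences are those of RefSeq on GRCm38.p6, plus strand, at chr5:90460750-90460869 for Alb and chr5:90490594-90490713 for Afp.
Alb upstream: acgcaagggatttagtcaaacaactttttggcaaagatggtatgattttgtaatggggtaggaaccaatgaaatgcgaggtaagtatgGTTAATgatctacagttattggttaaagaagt
Afp upstream: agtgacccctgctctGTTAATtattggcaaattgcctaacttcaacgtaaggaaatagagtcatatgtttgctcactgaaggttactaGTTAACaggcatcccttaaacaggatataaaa
In both genes a match begins 32 bases before the start, GTTAAT in Alb and GTTAAC in Afp, and Afp holds GTTAAT also at 105 bases. Of 32851 promoter windows of 250 bases, 6.43% hold GTTAAT and 2.56% hold GTTAAC. Of the 10 genes, 7 have an entry in the promoter table, with 9 windows, and beside Alb and Afp only the first window of Spp1 holds one of these letters, GTTAAT at 194 bases. Such a match is a description of the letters, not a site.

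The probes of Alb, Spp1 and Epcam are shown because these genes stand for the hepatocyte and the biliary side, and because each was read at a single spot, so that 1 sequence on each array carries the whole value.
Alb probe A_51_P160713: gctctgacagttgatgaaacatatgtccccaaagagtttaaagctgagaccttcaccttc
Spp1 probe A_55_P2085142: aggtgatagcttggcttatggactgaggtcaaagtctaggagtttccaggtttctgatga
Epcam probe A_52_P447944: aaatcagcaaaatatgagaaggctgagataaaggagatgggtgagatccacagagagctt
The annotation places them on mm9 at chr5:90901598-90901657 for Alb, chr5:104868502-104868561 for Spp1 and chr17:88048972-88049800 for Epcam. The Epcam probe covers a span of 829 bases with 60 bases, so the stretch it matches is split on the genome.

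A level is a log2 value, the processed signal of a probe relative to the signal at the 75th percentile of its array, so a level of 0 lies at that percentile. The percentile was 893 on MF, 676 on CF, 925 on MM and 628 on CM, and between 56.1% and 65.3% of the spots were well above background. The scanner saturates at 778614, which 22 non-control spots reached on MF, 1 on CF, 0 on MM and 1 on CM. Of the 22 on MF, 6 are spots of Alb, Ttr, Ahsg and Afp, the spot on CF is that of Ahsg and the spot on CM that of Alb. A saturated level is a lower limit, so a difference from it is given as "at least", and none is given where both arrays were saturated. The software had divided each spot by a detrending factor for its place on the array, between 0.446 and 1.75 over all arrays. For 267 probes printed at 10 spots, the SD over spots of the log2 difference at the same position had a median of 0.30 for MF vs CF and 0.32 for MM vs CM. This spread is technical, and of the 10 genes it can be measured only for Afp, Sox9 and Cdh1.

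The arrays also differed in RNA of other organs. Of 15 genes of the intestinal epithelium compared, 12 exceeded CF on the MF array by more than 1.5-fold and 0 were lower, with a median log2 difference of 3.15. Of 10 heart muscle genes, 9 were over 1.5-fold lower on MF than on CF, and their summed level was 229 times the 75th percentile on CF but 2.67 on MF, 3.08 on MM and 6.99 on CM. Each group has 1 array, so no value for females can be given without MF or CF. The males are the pair without these arrays, but differed in such genes too. Of 9 heart muscle genes 1 was higher on MM and 6 lower, with a median of -1.99. Of 12 exocrine pancreas genes 3 were higher and 9 lower, with a median of -1.01. Of all genes taken by their brightest probe, 20.2% were higher on MF and 21.4% lower, and 18.7% higher on MM and 24.6% lower.

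Of the 11 probes, 10 were well above background on all 4 arrays, and the exception was the second Gpc3 probe. The genes secreted by hepatocytes and Gpc3 by its first probe lay above the 75th percentile on every array, as did Spp1 and Cdh1, while Sox9 lay below it on all 4 and Epcam on 3.

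**Figure D1:**
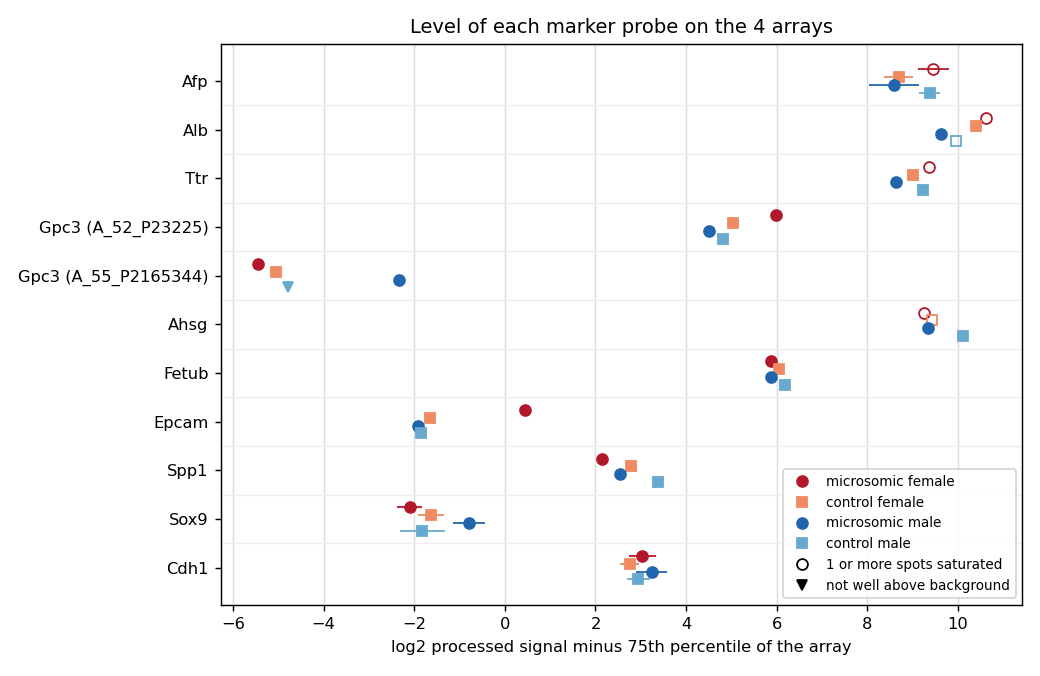
Level of each of the 11 probes on the 4 arrays, as log2 signal relative to the 75th percentile (0 on the axis). Bars are the SD over spots for Afp, Sox9 and Cdh1, open symbols have 1 or more saturated spots and the triangle is not well above background; Epcam stands apart on MF, and Sox9 and the second Gpc3 probe on MM.

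Between females, 10 of the probes could be compared. Of these, 3 were over 1.5-fold higher on MF (Afp, Gpc3 by its first probe and Epcam) and 1 was lower (Spp1). Over all 34218 probes compared, 19.5% were higher on MF and 22.8% lower, or 42.3% either way, so that 4 of 10 is near the background. Between males, 11 probes were compared. Of these, 2 were over 1.5-fold higher on MM (Sox9 and the second Gpc3 probe) and 4 were lower (Afp, Ttr, Ahsg and Spp1), where 19.1% of 33656 probes were higher, 25.3% lower and 44.4% either way. The median log2 difference of the marker probes was 0.25 in females and -0.31 in males, beside -0.07 and -0.01 over all probes. Taken by the brightest probe of each gene the median in males was -0.32, which kept its sign in 4 of 7 other settings and was 0.33 with normexp and 0.25 without scaling. Of the 10 probes compared in both sexes, 1 passed 1.5-fold the same way (Spp1, background 7.4%), 1 passed it in opposite ways (Afp, background 10.5%), and 3 had the same sign in both (background 46.4%). None of these shares sets the markers apart from the other probes of the array.

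**Figure D2:**
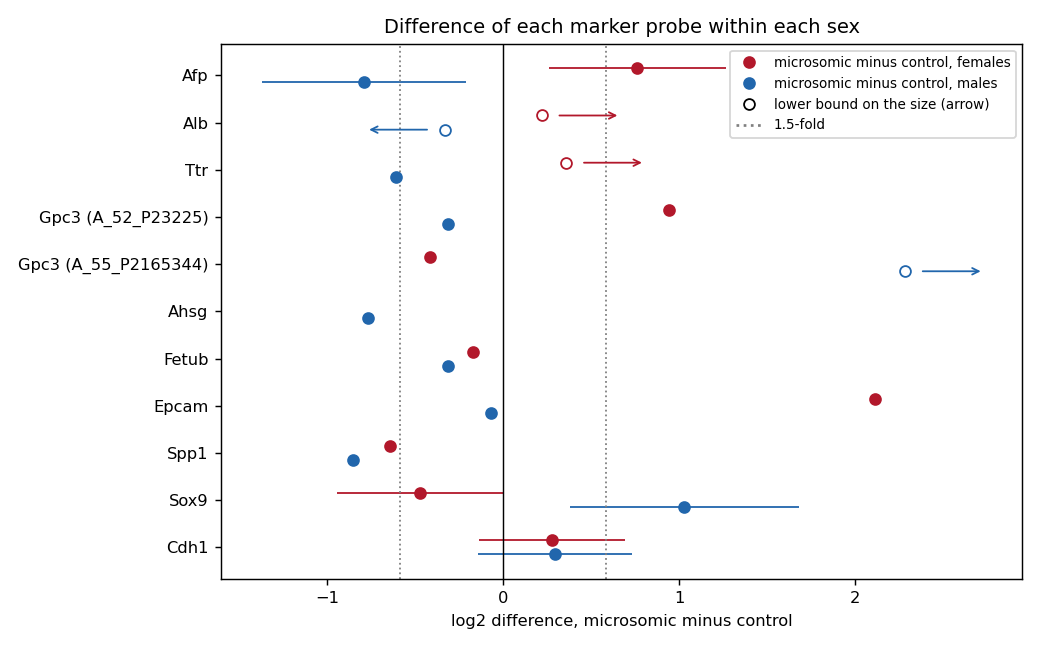
Log2 difference of each probe, microsomic minus control, in females (MF minus CF) and males (MM minus CM). Bars are the SD over position-matched spots, dotted lines mark 1.5-fold, and open symbols with an arrow are lower bounds on the size. The value of Afp in females, with 3 saturated spots on MF, is a lower limit too; Spp1 alone lies beyond the dotted line on the same side in both sexes, and Afp lies beyond it on opposite sides.

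A model of all 4 arrays was the only test that could be made. It took M or C and sex as terms, left 1 residual degree of freedom, and treated the sexes as replicates of a common change. In limma over 25020 probes well above background on all arrays, 0 probes had a Benjamini-Hochberg adjusted p under 0.05 (smallest 0.668), and 1122, or 4.48%, had an unadjusted p under 0.05. Of the 10 marker probes in the fit, 0 reached an unadjusted p under 0.05. Epcam came nearest, with a log2 M minus C of 1.02 ± 0.57 (SE, adjusted p = 0.998 from limma), followed by Spp1 at -0.75 ± 0.42 (SE, adjusted p = 0.998 from limma). The value of Epcam averages 2.11 in females and -0.07 in males, so it does not stand for a change common to both.

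Afp, alpha-fetoprotein, is the fetal counterpart of albumin in plasma. Its probe (A_51_P510891, transcript NM_007423, chr5:90937781-90937840 on mm9) kept 9 of 10 spots after the outlier flags. Its level was 9.46 ± 0.34 on MF, 8.70 ± 0.32 on CF, 8.59 ± 0.55 on MM and 9.38 ± 0.23 on CM (SD over 9 spots of 1 array). MF and CM were the high arrays and CF and MM the low ones, and CF and MM differed by less than the spot SD. With saturated spots on MF its level is a lower limit, so its order to CM is not given. MF was at least 1.70-fold higher than CF, a log2 difference of at least 0.76, with all 9 spots higher by 0.19 to 1.68. MM was 1.73-fold lower than CM, a log2 difference of -0.79, with all 9 spots lower, from -1.68 to -0.10. Afp thus lay in opposite directions in the sexes, a contrast that was not tested, and the control male exceeded the control female by 0.68 on the log2 scale, also at 9 of 9 spots.

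The signal of Afp was close to the limit of the scanner. Before any correction, the mean pixel value of its spots was 78.3% to 99.9% of saturation on MF, 19.8% to 73.5% on CF, 21.2% to 72.9% on MM and 37.9% to 80.4% on CM. On MF 3 of the 9 spots were saturated, and over the 6 spots that were not, the log2 difference from CF was 0.99 and that of MM from CM -0.93. With the detrending factor multiplied back, the differences were 0.92 and -0.97, but the spots agreed less. In males 2 of the 9 spots were then higher on MM, with a range from -2.45 to 0.33 and an SD of 1.01. In females all 9 stayed higher on MF, the lowest by 0.002. With quantile normalization MF exceeded CF by 0.10, under 1.5-fold, while in males the difference kept its sign in all 10 alternative settings and passed 1.5-fold in 6 of them.

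**Figure D3:**
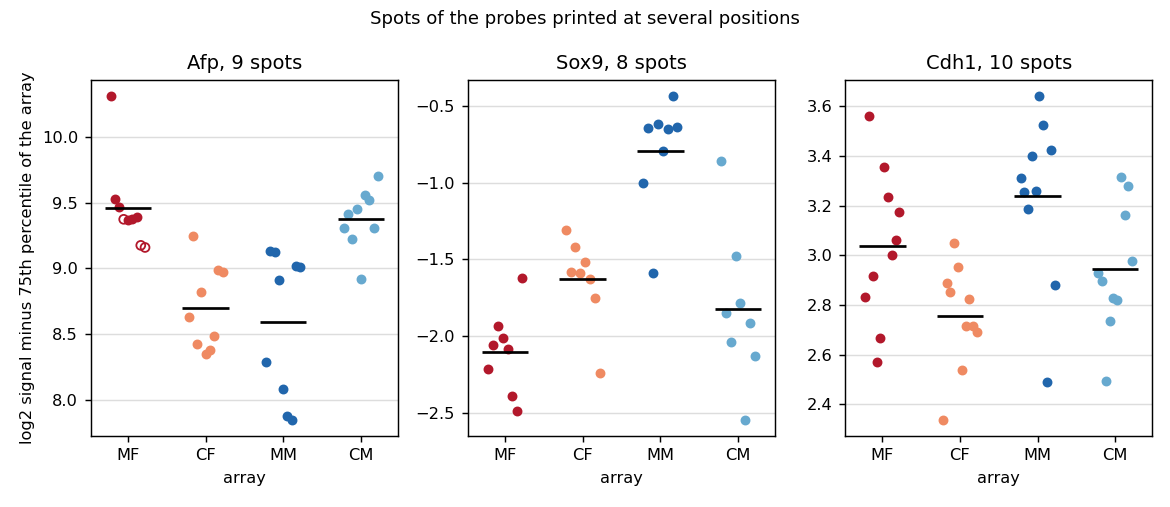
Level of each kept spot of the probes of Afp (9 spots), Sox9 (8 spots) and Cdh1 (10 spots) on each array, as log2 signal minus the 75th percentile, with a line at the mean and open symbols for saturated spots. Afp spots on MM lie in separate sets, from 8.91 up and from 8.29 down, Sox9 is highest on MM, and the Cdh1 spots of all 4 arrays overlap.

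Alb encodes serum albumin, the main plasma protein made by hepatocytes. Its level was 10.62 on MF, 10.40 on CF, 9.63 on MM and 9.96 on CM, and the spot was saturated on MF and on CM. MF was at least 1.17-fold higher than CF and CM at least 1.26-fold higher than MM. MM was thus the lowest array under this scaling, but both values are bounds and the order of MF and CM cannot be given. The log2 bound in males had a value in 7 alternative settings. It ran from -1.14 with the detrending factor multiplied back to -0.09 with median centring. Without scaling none is given, since the deposited signal was 734626 on MM and 626627 at the saturated spot on CM.

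Ttr encodes transthyretin, which carries thyroid hormone and, bound to retinol-binding protein, retinol. Its probe on chromosome 18 read 9.37 on MF, where it was saturated, 9.01 on CF, 8.63 on MM and 9.24 on CM. MF was at least 1.28-fold higher than CF, and MM was 1.53-fold lower than CM (log2 -0.61). The difference in males had the other sign with the detrending factor multiplied back (0.032) and with normexp background correction (0.39), so no direction is given for Ttr in males.

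Ahsg and Fetub encode fetuin-A, an inhibitor of mineral formation in plasma, and fetuin-B, a protease inhibitor, and lie side by side on chromosome 16. Ahsg read 9.25 on MF and 9.43 on CF, both saturated, so these arrays give no difference. It read 9.35 on MM and 10.12 on CM, 1.70-fold lower on MM (log2 -0.77). The mean pixel values behind it were 85.6% of saturation on MM and 87.7% on CM, the difference was 0.00 with quantile normalization and 0.10 with normexp, and no direction is given for it either. Fetub was well within the range of the scanner, with 5.88 on MF, 6.06 on CF, 5.87 on MM and 6.18 on CM. Its log2 difference was -0.17 in females and -0.31 in males, under 1.5-fold in both. In females it was -0.80 with quantile normalization and -1.15 with normexp, both past 1.5-fold, and 0.23 without scaling, and in males the sign turned to 0.37 with the detrending factor multiplied back, so no direction is given for Fetub.

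Other plasma proteins of hepatocytes were counted beside these 5 genes. Of 19 secreted proteins compared in females, 5 were over 1.5-fold higher on MF and 0 were lower, with a median log2 difference of 0.37, against 20.2% and 21.4% of all genes taken by their brightest probe. The largest were Itih2 and Itih3, heavy chains of the inter-alpha-trypsin inhibitors, at 2.77-fold and 2.57-fold. Of 22 compared in males, 1 was higher on MM (Apob, the protein of low-density lipoprotein, 1.96-fold) and 4 were lower, with a median of -0.18, against 18.7% higher and 24.6% lower of all genes. The median in females turned to -0.34 with quantile normalization and -0.10 with normexp, and that in males kept its sign in 3 of 7 other settings and reached 0.38 without scaling, so neither gives a direction. Trf, the iron carrier transferrin, was 2.17-fold lower on MM and Fgb, a chain of fibrinogen, 2.06-fold. Among 8 genes of the albumin and fetuin families with a kept probe, Hrg and Afm were higher on MM, by 1.98-fold and 1.65-fold, Afp and Ahsg were lower, and the median was -0.32, while in females Afp alone of 7 passed 1.5-fold and the median was -0.01.

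Gpc3 encodes glypican 3, a heparan sulfate proteoglycan of the hepatoblast surface, on the X chromosome. Its first probe (A_52_P23225, transcript NM_016697, chrX:49625740-49625799 on mm9) read 5.98 on MF, 5.04 on CF, 4.50 on MM and 4.81 on CM. MF was the high array, 1.92-fold above CF (log2 0.94), and MM the low one, at a log2 difference of -0.31 from CM and of -1.48 from MF. The difference in females passed 1.5-fold in 8 of 10 alternative settings but was -0.027 with normexp, and the difference in males was 0.43 with the detrending factor multiplied back.

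The second Gpc3 probe (A_55_P2165344, for the cDNA AK077942, chrX:49740892-49740951 on mm9) gave another picture. It read -5.46 on MF, -5.05 on CF, -2.34 on MM and -4.80 on CM, the last not well above background. MM was therefore at least 4.87-fold above CM (log2 at least 2.28), while MF was at -0.42 from CF. All 3 arrays other than MM were near the lowest signal that counts as above background, between -5.98 and -4.62 by array. The probes of Gpc3 thus disagreed in both sexes, and the values of this probe are not added to those of the first.

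Other genes of the fetal hepatoblast were mixed. Of 12 compared in females, 4 were over 1.5-fold higher on MF and 2 lower, with a median log2 difference of 0.18, against 20.2% and 21.4% of all genes. Of 13 in males 2 were higher on MM and 4 lower, with a median of -0.19, against 18.7% and 24.6%. Igf2, the fetal growth factor, had the signs of Afp, 3.71-fold higher on MF than CF and 1.77-fold lower on MM than CM. Peg3, an imprinted gene, was lower on both microsomic arrays, by 1.82-fold in females and 2.40-fold in males. Igf2bp2, an RNA-binding protein of fetal tissue, was higher on both, by 2.71-fold and 1.93-fold.

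Genes that hepatocytes raise around and after birth were counted beside them. Of 17, 5 were over 1.5-fold higher on MF and 6 lower, with a median of -0.52, against 20.2% and 21.4% of all genes. On MM 1 was higher and 3 lower, with a median of -0.37, against 18.7% and 24.6%. Tdo2, which degrades tryptophan, was 13.4-fold lower on MF than on CF, and G6pc, the last enzyme of glucose release, was 2.58-fold higher on MF than CF but 11.5-fold lower on MM than CM.

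Of the regulators of these genes, 17 were compared in females, with 6 over 1.5-fold higher on MF, 3 lower and a median of 0.28. In males 16 were compared, with 6 higher on MM, 2 lower and a median of 0.26. Of all genes, 20.2% were higher on MF and 21.4% lower, and 18.7% higher on MM and 24.6% lower. Foxa3, a forkhead factor of hepatocytes, was 4.97-fold higher on MF and 1.80-fold higher on MM. Notch1, a receptor of the biliary path, was 5.19-fold higher on MF and at a log2 difference of 0.34 on MM. Foxa2, a forkhead factor of liver progenitors, was 1.78-fold and Nr5a2, a nuclear receptor, 1.76-fold lower on MF. Prox1, a homeobox factor of hepatoblasts, was 1.91-fold and Tgfb2, a growth factor, 1.85-fold lower on MM. Hnf4a, the hepatocyte nuclear receptor, was 2.01-fold and Yap1, the effector of the Hippo pathway, 2.05-fold higher on MM.

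Epcam encodes an adhesion molecule of epithelia that is found on hepatoblasts and bile duct cells, and in the gut on nearly the whole epithelium. Its level was 0.45 on MF, -1.66 on CF, -1.93 on MM and -1.86 on CM. MF stood alone and the other 3 arrays lay between -1.93 and -1.66. MF was 4.33-fold above CF, a log2 difference of 2.11, the largest of the 10 genes in females, and it lay between 1.76 and 2.51 in all 10 alternative settings. In males the difference was -0.07.

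The intestinal genes were high on the same array. Their summed level over 18 genes was 302 times the 75th percentile on MF, 157 on CF, 216 on MM and 145 on CM. Much of each sum was 1 gene, Tff3, with a level of 7.40 on MF, 7.05 on CF, 6.67 on MM and 6.86 on CM. The sums therefore do not stand for the whole list. Lct, lactase, was 72.6-fold higher on MF than on CF, and Alpi, the alkaline phosphatase of the brush border, at least 131-fold. Cdx2, the transcription factor that defines intestinal epithelium, was well above background only on MF, at -0.20. In males 3 of 12 intestinal genes were over 1.5-fold higher on MM and 6 lower, with a median of -0.44. The largest rises on MM were those of Apoa4 and Fabp2, at 12.0-fold and 5.22-fold, and whether their RNA came from liver or gut was not tested. The part of the intestinal RNA in the level of Epcam on MF was not tested.

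The biliary genes that accompany Epcam were counted in the same way. Of 26 compared, 10 were over 1.5-fold higher on MF and 2 lower, with a median of 0.22, against 20.2% and 21.4% of all genes. On MM 3 were higher and 5 lower, with a median of 0.00, against 18.7% and 24.6%. Dmbt1, a secreted mucosal glycoprotein, was 84.4-fold and Elf3, an epithelial transcription factor, at least 8.60-fold higher on MF, and both are also made by intestinal epithelium. Krt19, the keratin of bile ducts, was 2.44-fold higher on MF and 1.64-fold lower on MM. Krt7 was at a log2 difference of 0.35 on MF and 1.78-fold lower on MM. The largest rises of the list on MM were those of Dmbt1 and Notch2, and the largest falls those of Sctr and Cldn7. On MF the 2 lower genes were Hes1 and Ehf.

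**Figure D4:**
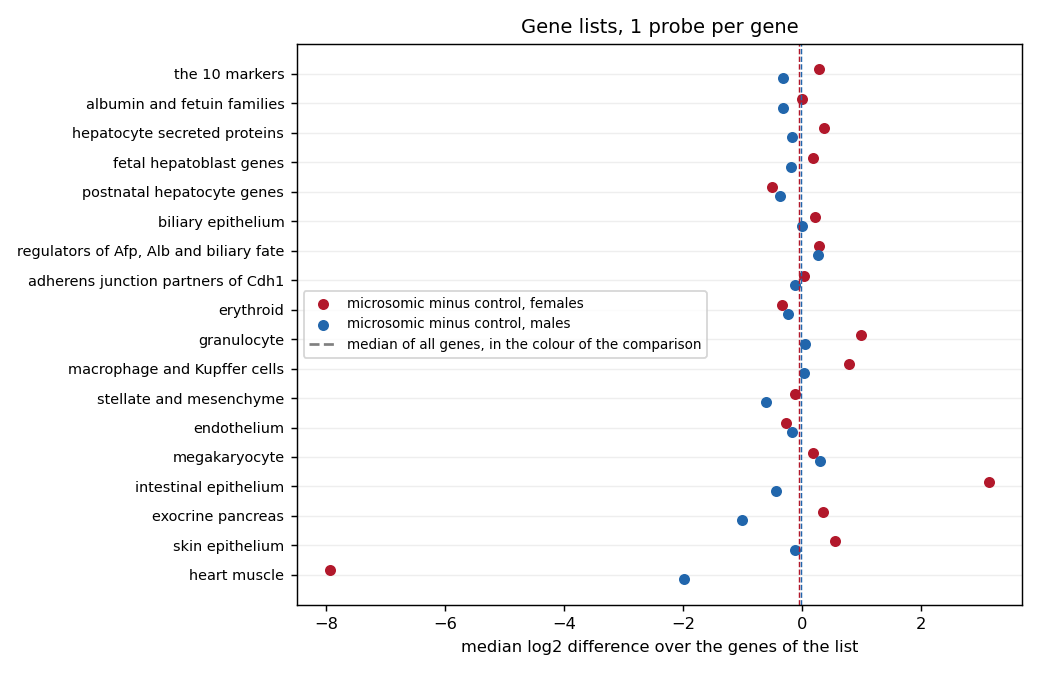
Median log2 difference, microsomic minus control, over the genes of each list (brightest probe of each gene), in females and males, with dashed lines at the medians of all genes. Intestinal genes lie at 3.15 and heart muscle genes at -7.94 in females, and the 10 markers at 0.28 in females and -0.32 in males. The list of adherens junction partners also holds repressors of Cdh1.

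Spp1 encodes osteopontin, a secreted phosphoprotein of biliary cells, macrophages and bone. It read 2.14 on MF, 2.78 on CF, 2.54 on MM and 3.39 on CM. Both microsomic arrays were below both control arrays, and within each condition the male was above the female. MF was 1.56-fold below CF (log2 -0.64) and MM 1.81-fold below CM (log2 -0.85). It was lower in M in both sexes in all 10 alternative settings, but with the detrending factor multiplied back the difference in males was -0.17, without scaling the differences were -0.24 and -0.29, and with each array centred on its median no probe passed 1.5-fold the same way in both sexes. Of 12 macrophage and Kupffer cell genes, 10 were over 1.5-fold higher on MF and 0 lower, with a median of 0.79, against 20.2% and 21.4% of all genes. On MM 2 were higher and 2 lower, with a median of 0.03, against 18.7% and 24.6%. Csf1r, the receptor that defines macrophages, was 3.71-fold higher on MF than CF. The part of these cells in the level of Spp1 was not tested.

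Sox9 encodes the transcription factor that marks the ductal plate. Its probe (A_52_P214630, chr11:112648809-112648868 on mm9) kept 8 of 10 spots, with -2.10 ± 0.27 on MF, -1.63 ± 0.28 on CF, -0.80 ± 0.36 on MM and -1.83 ± 0.50 on CM (SD over 8 spots of 1 array). MM was the high array, and the other 3 differed from their neighbours in this order by less than the larger spot SD. MM was 2.04-fold above CM, a log2 difference of 1.03 with 7 of 8 spots higher, and above MF by 1.31 with 8 of 8 spots higher. MF was at -0.47 from CF with 7 of 8 spots lower, beside an SD of 0.47 over these spots. The difference in males passed 1.5-fold in all 10 alternative settings, from 0.71 to 1.59. With the detrending factor multiplied back it was 0.75 with an SD of 1.11 over the 8 spots. Of these, 6 were then higher on MM and 2 lower, 1 of them past 1.5-fold. Sox9 and Epcam, both read as biliary genes, were thus high on different arrays, Sox9 on MM and Epcam on MF.

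Cdh1 encodes E-cadherin, the adhesion molecule of epithelial junctions. Over its 10 spots the level was 3.04 ± 0.31 on MF, 2.76 ± 0.21 on CF, 3.24 ± 0.33 on MM and 2.94 ± 0.25 on CM (SD over spots). All 4 arrays overlapped spot by spot. The difference was 0.28 ± 0.41 in females and 0.29 ± 0.44 in males (SD over spots), with 8 of 10 spots higher in M in each sex, and was under 1.5-fold in both. Without scaling it was 0.68 and 0.85, past 1.5-fold in both, where the median of all probes lay at 0.32 and 0.51. Partners of Cdh1 in adherens junctions were counted in 1 list with repressors of Cdh1 such as Snai2, so its counts and medians mix these kinds. Of 12 compared, 1 was over 1.5-fold higher on MF (Jup, plakoglobin, at least 1.88-fold) and 1 lower (Snai2, 1.61-fold), with a median of 0.04. On MM, 1 was higher (Vcl, 1.90-fold) and 2 lower (Ctnnd1, 1.97-fold, and Jup, 1.87-fold), with a median of -0.12. Of all genes, 20.2% were higher on MF and 21.4% lower, and 18.7% higher on MM and 24.6% lower.

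**Figure D5:**
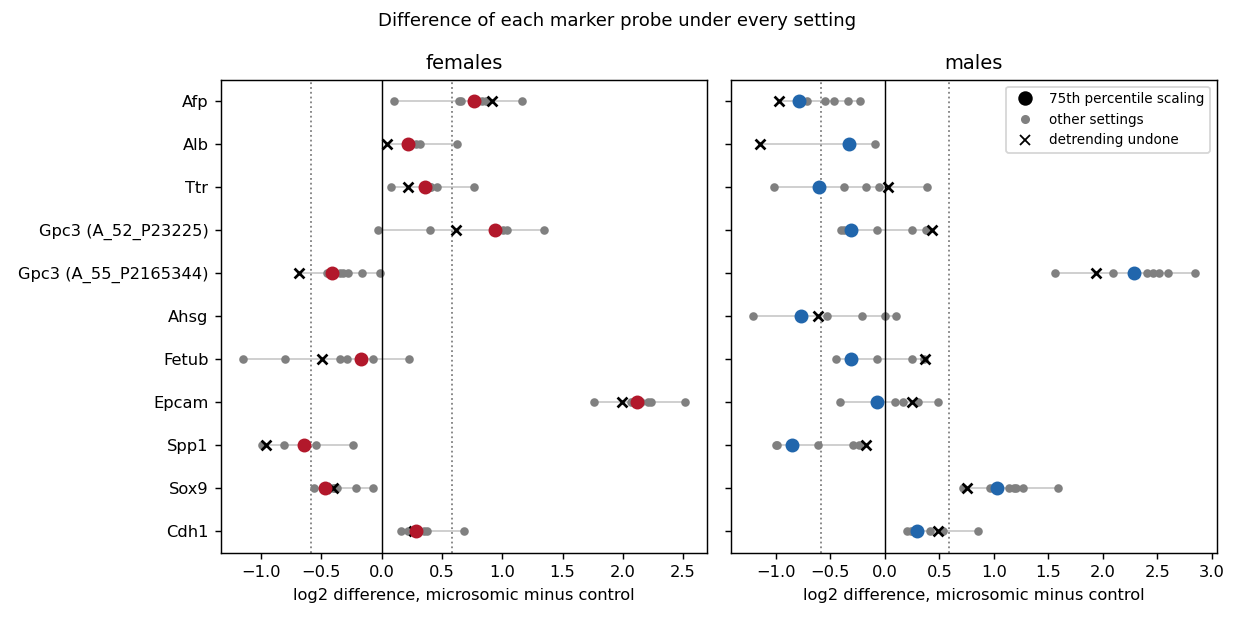
Log2 difference of each probe, microsomic minus control, under 75th percentile scaling (large point), under other settings (grey) and with the detrending factor multiplied back (cross), in females and males, with dotted lines at 1.5-fold. Epcam in females, and Sox9 and the second Gpc3 probe in males, lie beyond the dotted line under every setting shown, while Ttr, Ahsg and Epcam in males and Fetub and the first Gpc3 probe in both sexes have values on both sides of 0.

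Cells of other kinds in the liver were read from the same arrays, where 20.2% of all genes were higher on MF and 21.4% lower, and 18.7% higher on MM and 24.6% lower. Granulocyte genes were over 1.5-fold higher on MF for 7 of 9, with 0 lower and a median of 0.99, and on MM 0 were higher and 2 lower, with a median of 0.05. Erythroid genes had medians of -0.34 in females (2 of 11 higher, 3 lower) and -0.23 in males (1 of 14 higher, 3 lower). Stellate and mesenchymal genes had medians of -0.12 and -0.60, with 0 of 11 higher and 6 lower on MM. Endothelial genes lay at -0.27 and -0.17 and megakaryocyte genes at 0.19 and 0.30. Genes of the exocrine pancreas lay at 0.36 and -1.01 and those of the skin at 0.54 and -0.11. Their summed levels were at most 45.1 (on MM) and 6.06 (on CM) times the 75th percentile. Most of the former was Amy2a5, at a level of 5.40, and most of the latter Trp63, at 2.33, so neither sum stands for its list. The heart muscle genes had a median of -7.94 in females and -1.99 in males. The part of these cells in the differences of the 10 markers was not tested.

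For the 4 genes with a level on all arrays, no saturated spot and a range over 1 log2 unit, the genes of most like pattern over the 4 arrays were found by the Euclidean distance between mean-centred levels, among 19266 genes. For Gpc3 these were Plec, Rps29 and Rabac1, for Epcam the probe named NAP111374-1, Sema4a and Ndrg1, and for Sox9 2310039H08Rik and Zfp322a, followed by an unnamed probe. For Spp1 the nearest named gene was Gm13275, behind a pair of lincRNA probes. With 4 points a near match is common, and within a distance of 0.5 there were 669 genes for Gpc3, 84 for Epcam, 1316 for Spp1 and 752 for Sox9.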

How the data were processed

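The authors hybridized Cy3-labelled liver RNA to a 1-colour Agilent array and quantified it with Feature Extraction 10.7.3.1. The deposited processed signal is a linear intensity, from which the software subtracted a background surface and which it divided by a detrending ratio, also deposited by the authors. It was not normalized between arrays. The authors' table of values equals it in all 62976 spots and was not used further. The study's methods describe replicate experiments per group and limma per pair, of which 1 array per group was used here.

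A spot that the software marked as non-uniform or as a population outlier on 1 or more arrays was dropped from all 4, which removed 1754 spots, 3 of them of the markers. The 75th percentile of each array was subtracted from its log2 signals, and spots of a probe were averaged. Differences past 1.5-fold were counted for probes well above background on either array. A dimmer array that fell short of this entered at its lowest signal of that quality, or at the signal of the probe if that was brighter, and the difference is then a bound. limma 3.58.1 (R 4.3.3) was fitted to all 4 arrays with sex as a term. Its p-values rest on how far M minus C differs between the sexes, with a variance that limma moderates over all probes of the fit. This spread may be technical and holds no replicate of a group. Both steps were tested on simulated data.

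List genes were taken by their brightest probe, and up to 2 largest rises and 2 largest falls of each list in each sex were eligible to be named. Cdx2, Tff3, Krt7 and Krt19 were named outside this rule, after their values were seen. Serpina1b, Tf, Ela2, Adgre1, Prss3 and Amy2b are not names of the array annotation. Gene names and mm9 positions are those of the annotation, and all 10 symbols were matched in RefSeq. The markers, lists and tests were chosen with earlier results of these data known. Alternatives were median centring, quantile normalization, normexp (offset 50) with quantile normalization, no scaling, removal of a GC or position trend, flagged spots kept, a stricter and no filter on dim probes, the brightest probe, a 2-fold threshold and, for limma, an intensity trend, no sex term and the threshold of the methods. Multiplying back the detrending factor, and leaving out saturated spots of Afp, were chosen after seeing the data.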

Additional observations from a re-analysis of the deposited data

Results flagged for a closer look

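Afp lay past 1.5-fold in opposite directions in the sexes, with a log2 difference of at least 0.76 for MF vs CF and -0.79 for MM vs CM. The difference between the sexes was not tested, since each comparison has 1 array on each side. Of all probes compared in both sexes, 10.5% passed 1.5-fold in opposite ways.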

How the results depend on the processing

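With 1 array per group no array can be left out, since limma would keep no residual degree of freedom, and no paired analysis was possible because the labels carry no replicate numbers. Of the marker probes, 4 passed 1.5-fold in females and 6 in males. The count in females was 1 with a 2-fold threshold, which 10.3% of all probes passed higher on MF and 9.84% lower. With median centring it was 3, with 3 higher on MF and 0 lower, beside 22.5% and 18.7% of all probes. With quantile normalization it was 3 of 8, with 1 higher (Epcam) and 2 lower (Spp1 and Fetub), beside 17.7% and 22.6%. In males it was 3 with median centring, with quantile normalization and without scaling (all 3 higher on MM, 0 lower), and 2 with normexp and with a 2-fold threshold. Of all probes in males, 28.7% were higher on MM and 18.98% lower with median centring, 22.6% and 22.9% with quantile normalization, 45.3% and 13.2% without scaling, 24.5% and 22.3% with normexp, and 8.66% and 16.1% with a 2-fold threshold. The count that passed the same way in both sexes, 1, was 0 with median centring, normexp, a 2-fold threshold and the detrending factor multiplied back, and the 1 probe without scaling was Cdh1, not Spp1. In males Ttr turned to 0.39 with normexp and 0.032 with the detrending factor multiplied back, Ahsg turned to 0.10 with normexp, and in females the first Gpc3 probe turned to -0.027 with normexp. The cause was not tested. Probes called by limma at an adjusted p under 0.05, 0 as reported, were 7 with median centring and 36 without scaling. They were 29 with the position trend removed and 18 with the detrending factor multiplied back. The threshold of the methods keeps limma p-values below 0.01, not corrected for the number of probes, and changes past 1.5-fold. It passed 208 probes, a count that cannot be set beside the adjusted ones. In all of these settings 0 were markers. Without scaling, the median of all probes itself lay at 0.32 in females and 0.51 in males. Epcam in females, Sox9 in males and the second Gpc3 probe in males stayed past 1.5-fold under every alternative that gave a value. The list medians in males kept their sign in all 7 other settings for the regulators, stellate, exocrine pancreas and heart muscle genes only. Saturation on MF, CF or CM makes bounds of the differences of Alb in both sexes and of Ttr and Afp in females, and leaves Ahsg in females without one.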

Other observations

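The spots of Afp spread more widely on MM than those of most probes printed at 10 spots. Their SD was 0.55 on the log2 scale, beside a median of 0.18 and a 90th percentile of 0.33 over 267 such probes on that array. They lay in separate sets, 5 spots between 8.91 and 9.13 and 4 spots between 7.85 and 8.29. The mean pixel value ran from 164789 to 567779 over the spots of this 1 probe on 1 array, and the detrending factor, by which the software divides, from 0.570 to 1.27.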
